A study of Mus musculus with 6 samples.

Results

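Integrins are cell surface receptors made of an alpha chain and a beta chain, which bind matrix proteins or counter-receptors on other cells. Talins and kindlins bind the tail of the beta chain and switch the receptor to its high-affinity state. In bone marrow, integrins with the beta1 chain hold blood progenitors to fibronectin, laminins and VCAM1, while those with the beta2 chain belong to leukocytes. The platelet integrin, the fibrinogen receptor made by *Itga2b* and *Itgb3*, is a marker of megakaryocytes and is used below only for comparison.

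The 10 genes described here encode the integrin chains *Itga4*, *Itga5*, *Itga6*, *Itgal*, *Itgam*, *Itgav*, *Itgb1*, *Itgb2*, *Itgb5* and *Itgb7*. They were taken from a list of gene names, and all 10 were among the 12101 genes listed in megakaryocyte–erythroid progenitors (MEPs), the bone marrow cells that give rise to red blood cells and platelets. The MEPs came from adult *Nanog*-tg mice, labelled as strain CD-1, which carry a tetracycline-responsive transactivator at *Rosa26* and a *Nanog* cassette under a doxycycline-responsive promoter downstream of *Col1a1*. In 3 replicates the mice received doxycycline (dox) in the drinking water for 5 days, and in 3 replicates mice of the same genotype were left untreated. The transactivator is driven from a broadly active locus, so induction was not limited to MEPs. Each replicate held approximately 20000 MEPs, sorted from c-Kit+, Sca1- and lineage-negative bone marrow by CD34 and CD16/32, the markers that part MEPs from other myeloid progenitors, and the sources do not say how many mice gave each one. P-values therefore measure the spread between these samples, which may be technical.

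The libraries held from 11264803 to 16153600 reads on listed genes. Levels are given as CPM, the reads of a gene plus 0.5 per 1000000 reads of the normalized library size, and 1 read counted for 0.0642 to 0.0910 CPM. *Nanog* had from 15959 to 19609 reads with dox and from 1 to 13 without. All 25 erythroid marker genes were listed, at a summed 7418 to 12249 CPM. Of 30 granulocyte-monocyte markers 29 were listed as well, at a summed 625 to 6228 CPM, so being listed is no check of the cell type. Dox-treated replicate 3 stood apart, at -15.0 on the first principal component of all genes, where the other dox-treated libraries were at -57.5 and -56.4 and the untreated ones from 35.2 to 54.3. Results that depend on it are also given without it. This library was singled out by its values in these same data and held 15959 *Nanog* reads. P-values without it follow from that choice and are no separate support.

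The promoters of 3 members are shown to place these genes beside the myeloid and erythroid factors that bind such sequences elsewhere in blood. *Itgb1* is a chain that rose with dox, *Itgb5* is the member with the largest fold difference, and *Itgam* is the member whose dox-treated libraries all lay below the untreated ones. The sequences are from RefSeq on build GRCm38.p6, run 5′ to 3′ on the strand of the gene from 250 bases before its start to 50 bases after, and were not used to place any read. Capitals mark GAGGAA on either strand, the core of sites of the myeloid factor PU.1.
Itgb1, chr8:128685404-128685703, plus strand: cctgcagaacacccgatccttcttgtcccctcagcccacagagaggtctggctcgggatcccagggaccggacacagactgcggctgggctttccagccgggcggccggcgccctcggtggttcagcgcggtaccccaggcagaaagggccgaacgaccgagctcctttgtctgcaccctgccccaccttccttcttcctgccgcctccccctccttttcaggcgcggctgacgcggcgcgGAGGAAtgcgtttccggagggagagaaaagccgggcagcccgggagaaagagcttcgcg
Itgb5, chr16:33829415-33829714, plus strand: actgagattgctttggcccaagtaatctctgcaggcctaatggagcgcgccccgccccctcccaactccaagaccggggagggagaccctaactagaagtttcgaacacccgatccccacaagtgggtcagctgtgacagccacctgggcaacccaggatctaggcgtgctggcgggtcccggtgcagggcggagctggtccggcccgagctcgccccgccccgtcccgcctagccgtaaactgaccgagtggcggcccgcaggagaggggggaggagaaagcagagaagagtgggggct
Itgam, chr7:128062390-128062689, plus strand: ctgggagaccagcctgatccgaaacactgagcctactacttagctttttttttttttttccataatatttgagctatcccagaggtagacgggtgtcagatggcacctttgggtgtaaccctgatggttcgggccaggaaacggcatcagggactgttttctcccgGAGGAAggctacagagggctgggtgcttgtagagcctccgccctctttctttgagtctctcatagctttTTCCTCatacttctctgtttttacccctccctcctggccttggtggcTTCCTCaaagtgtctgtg
The *Itgam* window held 3 matches, whose leftmost bases lie 84 and 15 bases before the start and at base 33 after it. The *Itgb1* window held 1 match, 9 bases before the start, and the *Itgb5* window held 0. Among windows not shown, *Itgav* held 2 matches, *Itgb7* and *Itga5* 1 each and *Itga4* 0. Of these, *Itgav* and *Itgb7* had a higher mean with dox, and *Itga5* and *Itga4* a lower one. Of the 7 members with a promoter entry 5 held GAGGAA, as did 28.3% of all 32851 promoters. None of the 7 held AGATAA on either strand, a GATA factor sequence found in 11.2% of all promoters. These are matches of letters in a short window and say nothing of binding.

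Dox-treated and untreated MEPs were compared to ask which integrin chains differ when mice receive dox and *Nanog* is induced. No mice without the *Nanog* cassette received dox here, so dox itself and *Nanog* cannot be told apart. Of the 10 chains 2 rose, *Itga6* and *Itgb1*, and 0 fell at an adjusted p under 0.05 (limma over 12088 genes). Over all genes tested 4.59% rose and 3.18% fell at this threshold. The dox-treated libraries all lay above the untreated ones for 3 chains (*Itga6*, *Itgb1* and *Itgb5*) and all below for 1 (*Itgam*). Over all genes 17.7% were separated upward in this way and 18.2% downward. The median log2 fold change of the 10 chains was 0.26, beside -0.03 over all genes tested. Without dox-treated replicate 3, 4 chains rose (*Itgav* and *Itgb5* beside the other two), and over all genes 14.9% rose and 14.0% fell in that fit. Without any other single library 0 chains rose.

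**Figure D1:**
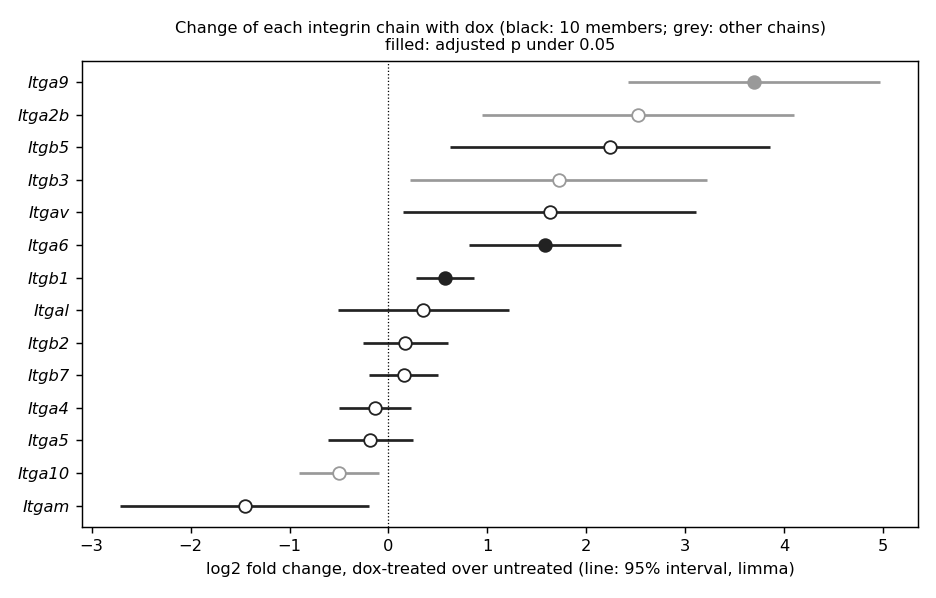
Log2 fold change of each integrin chain, dox-treated over untreated, with its 95% interval from limma; black marks the 10 members, grey the other listed chains, and filled points an adjusted p under 0.05. *Itga6*, *Itgb1* and *Itga9* are filled, and the intervals of *Itgb5* and *Itgav* are wide, from 0.63 to 3.86 and from 0.15 to 3.11.

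*Itgb1* encodes the beta1 chain, the shared partner of the alpha4, alpha5 and alpha6 chains. Its gene spans 131209554 to 131257100 on chromosome 8 (NCBIM37). The level of *Itgb1* was 495, 561 and 549.9 CPM in dox-treated replicates 1, 2 and 3 and 377, 384 and 321 CPM in untreated replicates 1, 2 and 3. No untreated library reached the lowest dox-treated one, and dox-treated replicate 3 lay between the other two. It averaged 535 ± 34.9 CPM in dox-treated MEPs against 361 ± 34.1 CPM in untreated MEPs (SD, n = 3 each), a difference of 0.57 log2 units (SE 0.12, 95% interval from 0.28 to 0.87, limma adjusted p = 0.045). This is a 1.49-fold rise. The adjusted p (limma) was 0.035 without dox-treated replicate 3 and from 0.10 to 0.17 without dox-treated replicate 1 or 2 or any untreated replicate, while the log2 fold change stayed between 0.49 and 0.63.

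*Itga6*, on chromosome 2 of NCBIM37 from 71583673 to 71696473, encodes the alpha6 chain, which with beta1 binds laminins. It was measured at 148, 161 and 81.4 CPM in dox-treated replicates 1, 2 and 3 and 45.5, 31.7 and 49.99 CPM in untreated replicates 1, 2 and 3. The groups did not overlap, and dox-treated replicate 3 lay about midway on the log scale between the untreated mean and dox-treated replicates 1 and 2. It averaged 129.9 ± 42.5 CPM in dox-treated MEPs against 42.4 ± 9.51 CPM in untreated MEPs (SD, n = 3 each), a difference of 1.58 log2 units (SE 0.31, 95% interval from 0.81 to 2.35, limma adjusted p = 0.041), which is a 2.99-fold rise. The log2 difference from the untreated mean was 1.83 in dox-treated replicate 1, 1.95 in replicate 2 and 0.97 in replicate 3. The adjusted p (limma) was 0.011 without dox-treated replicate 3 and from 0.10 to 0.14 without dox-treated replicate 1 or 2 or any untreated replicate.

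The alpha4 and alpha5 chains did not pass the test. *Itga4* encodes the alpha4 chain, which binds VCAM1 and fibronectin as alpha4beta1. It was measured at 389.9, 397 and 482 CPM in dox-treated replicates 1, 2 and 3 and 487, 399.5 and 507 CPM in untreated replicates 1, 2 and 3. The groups overlapped, with a difference of -0.13 log2 units (SE 0.15, 95% interval from -0.50 to 0.23, limma adjusted p = 0.57). Its sign turned positive after quantile normalization. *Itga4* lies on chromosome 2 of NCBIM37 from 79095583 to 79173280 and shares 1124 exon bases with *Cerkl* on the opposite strand. Strand use in counting is not given in the sources used here, so reads in those bases are uncertain. *Itga5* encodes the alpha5 chain of the classical fibronectin receptor, on chromosome 15 from 103174720 to 103197194. It was measured at 109, 111 and 87.1 CPM in dox-treated replicates 1, 2 and 3 and 94.4, 123 and 132 CPM in untreated replicates 1, 2 and 3. The lowest library was dox-treated replicate 3 and the groups overlapped, with a difference of -0.18 log2 units (SE 0.18, 95% interval from -0.61 to 0.25, limma adjusted p = 0.52).

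**Figure D2:**
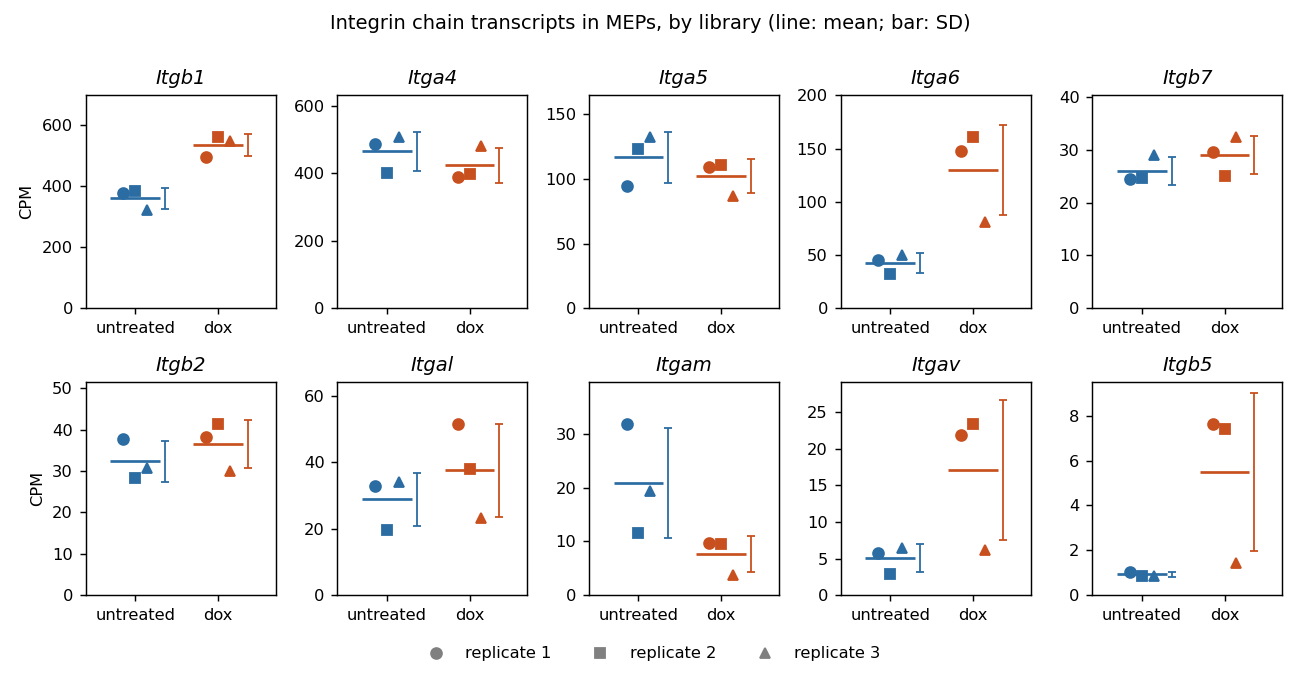
CPM of the 10 chains in each library, with untreated libraries in blue and dox-treated ones in orange; symbols mark the replicate, the horizontal line is the mean and the bar beside it the SD (n = 3), and each panel has its own axis from 0. The dox-treated points of *Itgb1*, *Itga6* and *Itgb5* lie above all untreated points, those of *Itgam* below, and for *Itgav* and *Itgb5* dox-treated replicate 3 lies far under replicates 1 and 2.

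*Itgb7* encodes the beta7 chain, which pairs with alpha4 in the receptor that carries lymphocytes and mast cell progenitors to the gut. On chromosome 15 of NCBIM37 from 102046426 to 102062366, it was measured at 29.6, 25.1 and 32.4 CPM in dox-treated replicates 1, 2 and 3 and 24.5, 24.6 and 29.2 CPM in untreated replicates 1, 2 and 3. The groups overlapped, with a difference of 0.15 log2 units (SE 0.14, 95% interval from -0.20 to 0.50, limma adjusted p = 0.50). Its 6 libraries lay between 24.5 and 32.4 CPM.

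The leukocyte integrins share the beta2 chain, made from *Itgb2* on chromosome 10 of NCBIM37 from 76992997 to 77028453. *Itgb2* was measured at 38.2, 41.3 and 29.9 CPM in dox-treated replicates 1, 2 and 3 and 37.8, 28.4 and 30.8 CPM in untreated replicates 1, 2 and 3. The groups overlapped, with a difference of 0.17 log2 units (SE 0.18, 95% interval from -0.26 to 0.60, limma adjusted p = 0.54). *Itgal*, on chromosome 7 from 134439774 to 134478651, encodes alphaL, which with beta2 forms LFA-1, the receptor for ICAMs. It was measured at 51.4, 37.9 and 23.3 CPM in dox-treated replicates 1, 2 and 3 and 32.8, 19.7 and 33.9 CPM in untreated replicates 1, 2 and 3. The highest library was dox-treated replicate 1 and dox-treated replicate 3 was below 2 of the 3 untreated libraries, with a difference of 0.35 log2 units (SE 0.35, 95% interval from -0.51 to 1.22, limma adjusted p = 0.53).

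*Itgam*, also on chromosome 7, from 135206154 to 135271674, encodes alphaM (CD11b), which with beta2 forms Mac-1 of neutrophils and macrophages. Antibodies to CD11b are a usual part of lineage cocktails, and the sources used here do not list the antibodies of the cocktail used in this sort. *Itgam* was measured at 9.68, 9.42 and 3.75 CPM in dox-treated replicates 1, 2 and 3 and 31.8, 11.5 and 19.3 CPM in untreated replicates 1, 2 and 3. Every dox-treated library was below every untreated one, with dox-treated replicate 3 lowest. It averaged 7.62 ± 3.35 CPM in dox-treated MEPs against 20.9 ± 10.2 CPM in untreated MEPs (SD, n = 3 each), a difference of -1.46 log2 units (SE 0.51, 95% interval from -2.71 to -0.20, limma adjusted p = 0.13), which did not pass the threshold over all genes. Its adjusted p (limma) took values from 0.030 to 0.27 across 16 alternatives, 2 of which were under 0.05.

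Granulocyte-monocyte markers moved in the same libraries. Of 30 genes on that list 29 were listed, of which 15 fell and 0 rose by the limma test (from 1 to 10 fell when a library other than dox-treated replicate 3 was left out, and 17 fell and 1 rose without that one), with a median log2 fold change of -1.97. The summed level of the list was between 625 and 938 CPM with dox and between 2749.6 and 6228 CPM without, and no listed marker was at 0 reads in any library. Over all genes 3.18% fell with all libraries and 14.0% without dox-treated replicate 3. Untreated replicate 1, which had the highest sum, also had the most *Itgam*. *Ly6c2*, a monocyte surface gene and the marker with the smallest p, averaged 12.1 ± 1.19 CPM in dox-treated MEPs against 126 ± 48.2 CPM in untreated MEPs (SD, n = 3 each), and *Mpo*, the granule enzyme gene with the highest level on the list, 430.2 ± 94.9 CPM in dox-treated MEPs against 2431 ± 939 CPM in untreated MEPs (SD, n = 3 each). *Elane*, *Cebpe*, *F13a1* and *Prtn3* fell as well. The sort by CD34 and CD16/32 was meant to leave granulocyte-monocyte progenitors out. The part of these markers in the values of *Itgam* was not tested, and in these bulk samples fewer cells of a type and less RNA per cell cannot be told apart.

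*Itgav* and *Itgb5* encode alphaV and beta5, which together bind vitronectin. *Itgav* lies on chromosome 2 of NCBIM37 from 83564554 to 83647073, and shares 634 exon bases with the unlisted *Gm13684* on the opposite strand. It was measured at 21.9, 23.3 and 6.13 CPM in dox-treated replicates 1, 2 and 3 and 5.72, 2.85 and 6.50 CPM in untreated replicates 1, 2 and 3. Dox-treated replicates 1 and 2 were above all untreated libraries and dox-treated replicate 3 was within their range. It averaged 17.1 ± 9.55 CPM in dox-treated MEPs against 5.02 ± 1.93 CPM in untreated MEPs (SD, n = 3 each), a difference of 1.63 log2 units (SE 0.60, 95% interval from 0.15 to 3.11, limma adjusted p = 0.14). Without dox-treated replicate 3 the log2 fold change was 2.26 (adjusted p = 0.021, limma).

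*Itgb5*, on chromosome 16 from 33829751 to 33949239, was the chain with fewest reads among the 10 members, and had 103, 99 and 22 reads in dox-treated replicates 1, 2 and 3 and 13, 11 and 9 reads in untreated replicates 1, 2 and 3. The groups did not overlap, but dox-treated replicates 1 and 2 stood far above the rest and dox-treated replicate 3 was close to the untreated range. It averaged 5.49 ± 3.51 CPM in dox-treated MEPs against 0.921 ± 0.111 CPM in untreated MEPs (SD, n = 3 each), a difference of 2.24 log2 units (SE 0.66, 95% interval from 0.63 to 3.86, limma adjusted p = 0.090). Without dox-treated replicate 3 the log2 fold change was 3.03 (adjusted p = 0.0024, limma). *Itgb5* met the filter for testing through the dox-treated libraries, since of the untreated ones only replicate 1 reached 1 CPM.

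**Figure D3:**
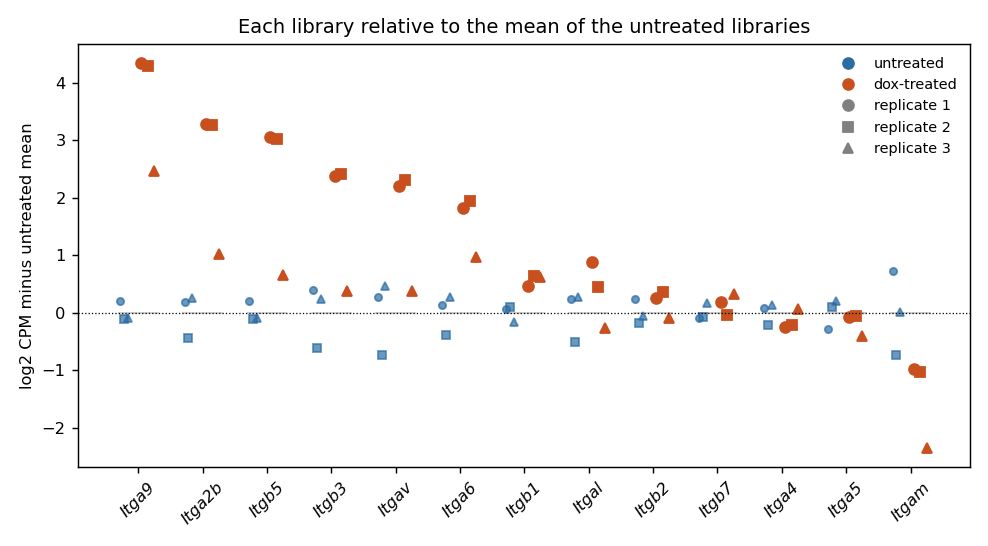
Log2 CPM of each library minus the mean of the untreated libraries, for the 10 members and for *Itga2b*, *Itgb3* and *Itga9*, with dox-treated libraries in orange and untreated ones in blue. For *Itgb5*, *Itgav* and *Itga6* dox-treated replicates 1 and 2 lie together at 1.83 or more, and dox-treated replicate 3 lies between 0.37 and 0.97.

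The same spacing of the dox-treated replicates was seen in the platelet integrin. *Itga2b* had 319, 314 and 66.9 CPM in dox-treated replicates 1, 2 and 3 and 37.5, 24.1 and 39.3 CPM in untreated replicates 1, 2 and 3, which is a difference of 2.52 log2 units (limma adjusted p = 0.069 with all libraries), or 3.27 log2 units without dox-treated replicate 3 (limma adjusted p = 0.0051). *Itgb3* had 45.2, 45.9 and 11.2 CPM in dox-treated replicates 1, 2 and 3 and 11.3, 5.65 and 10.1 CPM in untreated replicates 1, 2 and 3, which is a difference of 1.72 log2 units (limma adjusted p = 0.13 with all libraries), or 2.40 log2 units without dox-treated replicate 3 (limma adjusted p = 0.015). In both, dox-treated replicate 3 was far closer to the untreated libraries than replicates 1 and 2 were.

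Of the 16 integrin genes outside the 10 members 5 were listed, and 4 were tested. *Itga9*, which encodes alpha9, a further partner of beta1, rose from 6, 5 and 4 reads in untreated replicates 1, 2 and 3 to 120, 115 and 37 reads in dox-treated replicates 1, 2 and 3, a difference of 3.70 log2 units (SE 0.52, 95% interval from 2.42 to 4.98, limma adjusted p = 0.018). Its untreated libraries were all under 1 CPM, so *Itga9* met the filter for testing through the dox-treated libraries alone. The difference was 4.32 log2 units without dox-treated replicate 3 (limma adjusted p = 0.0019), and the adjusted p (limma) was from 0.065 to 0.075 without dox-treated replicate 1 or 2 or any untreated replicate. *Itga10*, a collagen-binding alpha chain, differed by -0.50 log2 units (limma adjusted p = 0.11), and the reads assigned to it are uncertain. *Itgax*, the CD11c chain of dendritic cells, was too low to be tested, with 13, 1 and 0 reads in dox-treated replicates 1, 2 and 3 and 20, 18 and 10 reads in untreated replicates 1, 2 and 3. *Itgb2l*, a relative of *Itgb2* that is on none of the lists and was picked after its values were seen, had 3, 5 and 3 reads in dox-treated replicates 1, 2 and 3 and 36, 19 and 30 reads in untreated replicates 1, 2 and 3 and fell (log2 fold change -2.97, adjusted p = 0.013, limma). It did not pass without dox-treated replicate 1, untreated replicate 1 or untreated replicate 3, where the limma adjusted p was at most 0.057. With every dox-treated library under 1 CPM, *Itgb2l* met the filter for testing through the untreated libraries alone.

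To compare chains with each other, CPM was divided by the length of all exons of the gene joined, in kb. In untreated MEPs *Itgb1* was highest, at 88.3 ± 8.36 CPM per kb (SD, n = 3). *Itga4* followed at 33.2 ± 4.09 CPM per kb and *Itga5* at 26.6 ± 4.53 CPM per kb. Then came *Itgb2*, *Itgb7*, *Itga6*, *Itgal* and *Itgam*, with means from 10.6 down to 3.27 CPM per kb, and last *Itgav* and *Itgb5*, at 0.467 and 0.274 CPM per kb. The ranges of the 3 untreated libraries overlapped between neighbours for *Itga4* and *Itga5*, *Itgb2* and *Itgb7*, *Itga6* and *Itgal*, *Itgal* and *Itgam*, and *Itgav* and *Itgb5*, so those pairs are not ordered.

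With dox *Itgb1*, *Itga4* and *Itga5* stayed the first 3, and *Itga6* was next instead of *Itgb2*, at 14.4 ± 4.71 CPM per kb (SD, n = 3), though its range overlapped that of *Itgb2*. *Itgam* became the last of the 10 at 1.19 ± 0.525 CPM per kb, and overlapped *Itgav* and *Itgb5*. These orders depend on the length used. With the longest protein-coding transcript, chosen after seeing the data, the mean of *Itga6* with dox was 30.1 CPM per kb and that of *Itga5* 23.4, but their ranges overlapped and dox-treated replicate 3 had the reverse order, so this pair is not ordered. With the median transcript, a length lowered by short partial models, *Itga4* was above *Itgb1* in untreated MEPs, at 177 and 141 CPM per kb. With dox that length put *Itga6* above *Itga5* without overlap, at 47.7 and 23.4 CPM per kb, the reverse of their order with joined exons.

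**Figure D4:**
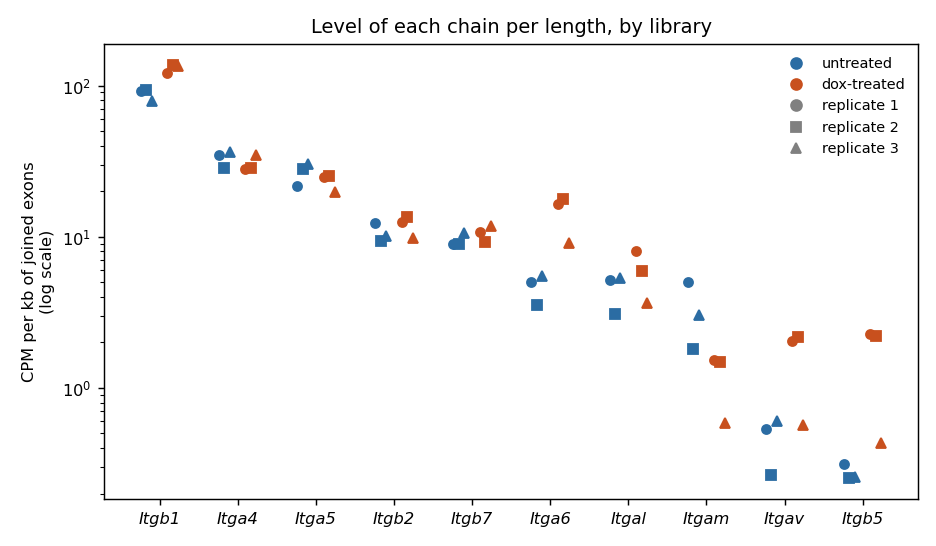
CPM per kb of joined exons of the 10 chains in each library on a log axis, ordered by the untreated mean, with untreated libraries in blue, dox-treated ones in orange and symbols for the replicate. *Itgb1* lies above all other chains in every library, and the levels of *Itgav* and *Itgb5* span the widest range between dox-treated replicates.

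As a share of the summed CPM per kb of all listed alpha chains, *Itga4* made up from 40.3% to 43.5% in untreated libraries. In dox-treated replicates 1, 2 and 3 it made up 19.7%, 20.2% and 42.5%. Its own level overlapped between the groups, and the share of *Itga2b* was 41.4%, 41.0% and 15.1% in the same libraries. *Itga6* made up from 4.96% to 6.29% without dox and 11.6%, 12.7% and 11.1% with it. The sizes of these shares depend on the length used. With the longest protein-coding transcript *Itga6* made up from 8.11% to 9.89% without dox and from 16.4% to 17.9% with it, and with the median transcript from 4.83% to 5.68% and from 7.05% to 8.47%. *Itga2b* made up 64.0% in dox-treated replicate 1 with the median transcript. Among beta chains *Itgb1* made up from 77.6% to 84.9% in every library, and the ranges of the groups overlapped.

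**Figure D5:**
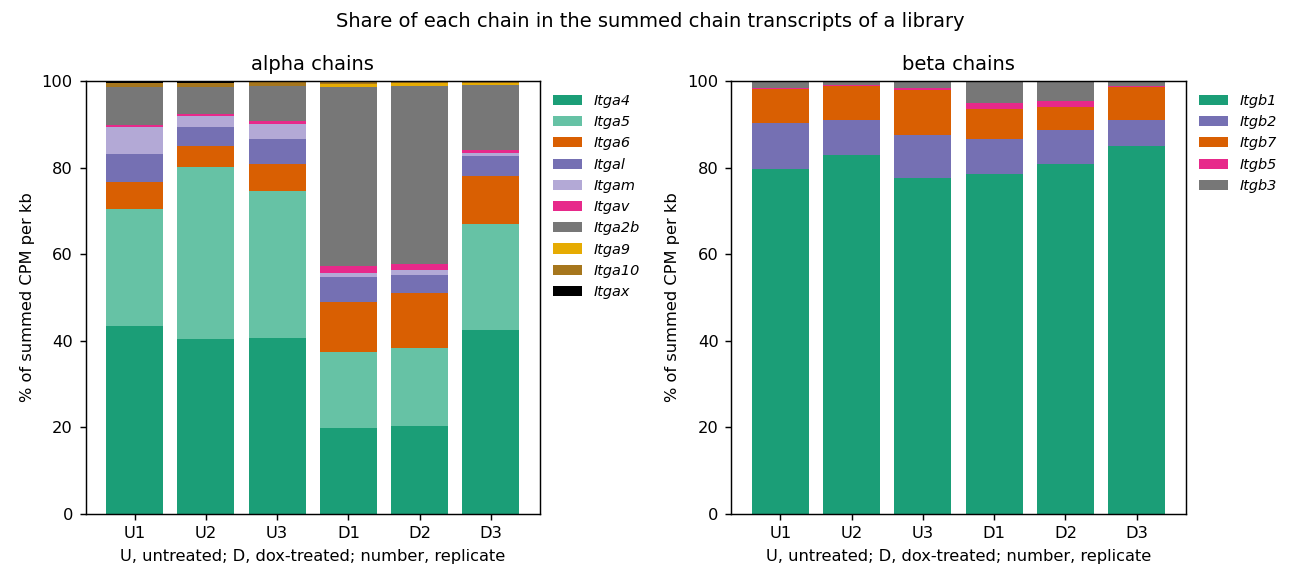
Percent of the summed CPM per kb of alpha chains (left) and beta chains (right) held by each chain in each library, with untreated libraries U1 to U3 and dox-treated libraries D1 to D3. *Itga2b* in grey and *Itga6* in orange take more of the alpha chains in D1 and D2 than in the untreated libraries, and *Itgb1* holds 77.6% or more of the beta chains throughout.

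Ratios of the CPM of chains that share a partner, or of *Itgb5* to its partner *Itgav*, were compared within each library, since such a ratio does not depend on library scaling. Of 5 ratios 3 had groups that did not overlap. No such share was computed over pairs of all genes, while 17.7% of single genes were separated upward and 18.2% downward. Each of the 3 holds a chain already separated alone (*Itga6*, *Itgam* or *Itgb1*) and a chain whose groups overlapped. The *Itga6*/*Itga4* ratio was 0.379, 0.405 and 0.169 in dox-treated replicates 1, 2 and 3 and 0.0934, 0.0794 and 0.0986 in untreated ones, a log2 difference of 1.71. The *Itgam*/*Itgal* ratio was 0.189, 0.248 and 0.161 in dox-treated replicates 1, 2 and 3 and 0.969, 0.583 and 0.570 in untreated ones, a log2 difference of -1.81. Between the alpha partners of beta2 the balance was thus further toward *Itgal* in every dox-treated library. The *Itgb7*/*Itgb1* ratio had a log2 difference of -0.42. For each of these 3 the two-sided exact permutation test gave p = 0.1, the smallest it can give for 3 against 3 libraries, and 0.17 adjusted over the 5 ratios. The log2 differences of *Itgb5*/*Itgav* (0.61, exact permutation p = 0.2) and *Itga5*/*Itga4* (-0.05, exact permutation p = 0.7) came from groups that overlapped.

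Genes that switch integrins on from inside the cell or tie them to the cytoskeleton were read as a list. Of 39 activators and adapters 32 were listed, of which 1 rose and 0 fell by the limma test, where 4.59% of all genes rose and 3.18% fell, so the count for this list is near that of all genes. Its median log2 fold change was 0.12. The summed level of the list was between 3886 and 3953 CPM with dox and between 3379 and 3838 CPM without. The gene that rose was *Lyn*, a Src-family kinase that signals downstream of integrins and of the IgE receptor, averaging 87.3 ± 11.6 CPM in dox-treated MEPs against 35.2 ± 6.02 CPM in untreated MEPs (SD, n = 3 each), a difference of 1.32 log2 units (SE 0.17, 95% interval from 0.90 to 1.74, limma adjusted p = 0.016). *Lyn* did not pass without dox-treated replicate 1, without dox-treated replicate 2 or without untreated replicate 3, where the limma adjusted p was at most 0.071. *Tln1*, the talin gene of blood cells, had a log2 fold change of 0.12 (95% interval from -0.14 to 0.38), and *Fermt3*, the kindlin gene of blood cells, -0.05 (95% interval from -0.49 to 0.39). Both genes are named as background for the pathway and were picked after their values were seen.

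Among integrin ligands and membrane partners 21 of 32 genes were listed, of which 2 rose and 1 fell by the limma test (4.59% and 3.18% over all genes), with a median log2 fold change of 0.30. *Lama1*, which encodes a laminin alpha chain, had 104, 103 and 49 reads in dox-treated replicates 1, 2 and 3 and 3, 1 and 0 reads in untreated replicates 1, 2 and 3, and rose (adjusted p = 0.015, limma). No untreated library had more than 3 reads of *Lama1*, so no fold is given. *Lama1* met the filter for testing through the dox-treated libraries alone. *Icam2*, which encodes a ligand of LFA-1, averaged 46.8 ± 1.07 CPM in dox-treated MEPs against 26.7 ± 4.47 CPM in untreated MEPs (SD, n = 3 each), a rise of 0.82 on the log2 scale (adjusted p = 0.034, limma). *Vcam1*, which encodes the ligand of alpha4beta1, had 47, 72 and 45 reads in dox-treated replicates 1, 2 and 3 and 652, 199 and 303 reads in untreated replicates 1, 2 and 3, and fell by 2.85 on the log2 scale (adjusted p = 0.028, limma). Granulocyte-monocyte markers fell in the same libraries, and their part in the values of *Vcam1* was not tested. Without dox-treated replicate 3 the adjusted p (limma) of *Lama1*, *Icam2* and *Vcam1* was 0.013, 0.029 and 0.031. *Lama1* did not pass without dox-treated replicate 1 or 2 or untreated replicate 2 (at most 0.059), *Icam2* without any library other than dox-treated replicate 3 (at most 0.13), and *Vcam1* without dox-treated replicate 1 or 2 or untreated replicate 1 or 3 (at most 0.098).

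Markers of other cell types were read in the same libraries as the chains that differed, and their counts stand beside the 4.59% of all genes that rose and the 3.18% that fell. Of 18 megakaryocyte markers 14 were listed, of which *Gp9*, *Mmrn1*, *Selp* and *Gp1ba* rose and *Vwf* fell (limma). The list had a median log2 fold change of 0.97 and holds *Itga2b* and *Itgb3* themselves, which also enter its sum. Its sum was 647, 644 and 301 CPM in dox-treated replicates 1, 2 and 3 and between 161 and 233 CPM in untreated ones. Of 16 mast cell markers 9 were listed, of which *Cpa3*, *Ms4a2* and *Slc18a2* rose and 0 fell, with sums between 700.1 and 894 CPM with dox and between 491 and 725 CPM without. *Kit*, the stem cell factor receptor used in the sort and the most abundant gene of that list, averaged 316 ± 9.81 CPM in dox-treated MEPs against 419 ± 81.8 CPM in untreated MEPs (SD, n = 3 each). Of 10 stromal and endothelial markers 4 were listed, of which 2 were higher, *Col1a2* and *Tek*, with sums of 133, 167 and 40.8 CPM in dox-treated replicates 1, 2 and 3 and between 5.62 and 13.8 CPM in untreated ones. All 4, the endothelial genes *Kdr* and *Emcn* among them, had a higher mean with dox, and the other 6 markers, such as *Cdh5* and *Pdgfra*, are not among the listed genes.

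Against the same shares of all genes (4.59% higher and 3.18% lower), 1 lymphocyte and NK marker and 3 erythroid markers were lower. Of 21 lymphocyte and NK markers 11 were listed, of which 1, *Nkg7*, was lower and 0 higher, with sums between 31.0 and 101 CPM with dox and between 57.3 and 78.9 CPM without. Dox-treated replicate 1 had the highest sum and the most *Itgal*, while dox-treated replicate 2 had the lowest sum and the next most *Itgal*. In the erythroid list 3 of 25 genes were lower (*Ermap*, *Epb42* and *Ank1*) and 0 higher, with a median log2 fold change of -0.31. The sums were 7636, 7418 and 12249 CPM in dox-treated replicates 1, 2 and 3 and between 10378 and 10859.8 CPM in untreated ones, so that dox-treated replicate 3 lay above every untreated library and replicates 1 and 2 below. *Car2*, the carbonic anhydrase gene with the highest level on that list, averaged 2207 ± 701 CPM in dox-treated MEPs against 2649 ± 190.3 CPM in untreated MEPs (SD, n = 3 each). Without dox-treated replicate 3, where 14.9% of all genes rose and 14.0% fell, the number lower on the erythroid list was 12, the numbers higher and lower were 6 and 1 among activators and adapters, 7 and 2 among ligands and partners, and 6 and 2 among megakaryocyte markers, and 5 mast cell markers were higher. When any other single library was left out, at most 1 gene was higher on each of the lists other than the granulocyte-monocyte one, and at most 2 were lower. The part of these markers in the values of the integrin chains was not tested.

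The genes most like *Itga6*, the member with the smallest p, were sought by the root mean square difference of log2 CPM over the 6 libraries after centring each gene. The nearest among the 9992 genes averaging 5 CPM or more were *Phactr2* at 0.0648, *Xdh* at 0.0676 and *B4galt5* at 0.0937 log2 units. *Xdh*, the gene of xanthine dehydrogenase, had 20.3, 19.7 and 10.3 CPM in dox-treated replicates 1, 2 and 3 and 5.72, 4.40 and 6.69 CPM in untreated replicates 1, 2 and 3. These genes were picked for their likeness over the same 6 libraries.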

How the data were processed

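RNA-seq was made from sorted MEPs of 3 dox-treated and 3 untreated replicates. Per the labels and methods, the authors trimmed adapters (Cutadapt), quantified transcripts by RSEM against Ensembl models of build NCBIM37 (mm9), and used limma to normalize. The deposited unit is the log2 of CPM, 0.5 reads having been added. How low genes were filtered and whether counting used strand is not given in the sources used here. All values corresponded to whole reads (100%, largest deviation 6.6e-09 reads), and these gave the depth, the read counts and the voom weights. PCR duplicates were not told apart.

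Here limma (version 3.58.1, R 4.3.3, lmFit and eBayes, no block) was fitted to the deposited log2 values of 12088 genes (1 CPM or more in 3 or more libraries), and p-values were adjusted over all of them by the Benjamini–Hochberg method. Fold changes understate genes with few reads. Ratios had two-sided exact permutation tests (scipy 1.17.1). The fit was tested on simulated data. Names, positions and lengths were those of the GENCODE annotation of NCBIM37, and older symbols came from the RefSeq table of GRCm38.p6. The members and lists were chosen with earlier results of these data known. Named were all integrin chains listed, up to 5 genes per list with the smallest p past the threshold, the most abundant gene of each marker list, *Nanog*, and the 3 profiles nearest to the member with the smallest p. Outside that rule, *Tln1*, *Fermt3*, *Itgb2l*, *Kdr* and *Emcn* were named, and shares of chains added, after seeing the data. RefSeq promoter entries were used for 7 members, and *Itga6*, *Itgal* and *Itgb2* are named only. Alternatives changed the pseudocount, filter, variance model, weights, scaling, replicate block, transcript length and libraries.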

Additional observations from a re-analysis of the deposited data

How the results depend on the processing

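Over all genes 555 rose and 384 fell at an adjusted p under 0.05 (limma). A mean-variance trend gave 909 and 747, array quality weights 2515 and 2601, and the replicate block 53 and 29. Leaving out single libraries gave from 92 to 1801 higher and from 36 to 1687 lower, the highest in each case without dox-treated replicate 3, whose array quality weight was 0.163. Scaling by total reads moved the median log2 fold change of all genes from -0.03 to 0.08. Of the 10 chains 2 rose and 0 fell. The count of rises was 4 with array quality weights, 0 with the replicate block, and from 0 to 4 without single libraries. The count of falls was 1 with array quality weights and 1 with the replicate block and voom precision weights, *Itgam* in both (adjusted p = 0.030 and 0.050, limma). With the replicate block the adjusted p (limma) was 0.13 for *Itga6* and 0.17 for *Itgb1*, and with the block and voom precision weights 0.015 and 0.051, where *Itgb5* passed (0.036). Same-numbered libraries had correlations of 0.0190, -0.121 and -0.298 between their deviations from the group means. Libraries with other numbers had from -0.203 to 0.236. So few correlations cannot decide whether the numbers pair libraries, and the labels and methods do not say. *Itga4* changed sign with quantile normalization (to 0.056 log2 units), and *Itga5*/*Itga4* when single libraries were left out, with a range from -0.23 to 0.16 that was positive without dox-treated replicate 3 (0.16) and without untreated replicate 2 (0.10); the cause was not tested. The other chains and ratios kept their sign under every alternative run for them. *Itgb5* had no value at a mean of at least 5 CPM. The SE of *Itgb5*, 0.66 log2 units and the largest of the 10, was 0.13 without dox-treated replicate 3.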
